A study of Mus musculus with 11 samples.

Results

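Integrins are receptors built from 1 alpha and 1 beta subunit, and the 10 subunit genes followed here (Itgb8, Itga4, Itgb1, Itgal, Itgb2, Itgae, Itgb7, Itgav, Itga6 and Itgb3) code for chains known from lymphocytes. They were chosen by name, with earlier results of these data known. Their values are the rows of an expression array table that carry 1 of these symbols in the platform annotation. The genes are 10 of the 19937 genes tested. Each had exactly 1 row in the table. Expression was measured on 11 Affymetrix Mouse Gene 1.0 ST arrays in a mouse model of T-cell prolymphocytic leukemia, to ask how the leukemic T-cells of each phase differ from normal T-cells. The exponential arrays (n = 5) held splenic CD8+ T-cells enriched by magnetic beads from Lckpr-TCL1A+/- mice of 15 months on average. Tumor cells there made up more than 80% of blood and more than 90% of spleen, and the lymphocyte doubling time averaged 12 days (SEM 0.8). The chronic arrays (n = 3) held the same kind of cells from Lckpr-TCL1A+/- mice of 12 months on average with 30 to 70% tumor cells in both places. Wild-type arrays (n = 3) held CD3+ pan-T-cells from spleens of age-matched C57BL/6 mice, each array a pool of 3 mice. The transgene places human TCL1A under the proximal Lck promoter, which is active in T-lineage cells, and the mice carried 1 copy of it. The sources used here do not say if each leukemia array came from 1 mouse, and the p-values therefore measure only the spread from array to array. The leukemias and the controls differed in genotype and in cell selection (CD8+ against CD3+), and these cannot be told apart.

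T-cells use integrins to stop on vessel walls, to enter tissue and to hold on to partner cells, and each alpha and beta pair has its own ligands. Integrin alpha 4 binds VCAM-1 and fibronectin when paired with beta 1, and MAdCAM-1 of gut vessels when paired with beta 7, while alpha L with beta 2 (LFA-1) binds the ICAMs. Integrin alpha v with beta 8 binds the latent form of TGF-beta and releases the active cytokine, an activity known from regulatory T-cells and dendritic cells.

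All values are log2 intensities after background correction and quantile normalization, so every array had the same median of 2.30. Correlations between arrays lay between 0.929 and 0.969 over all rows of the table. Exponential replicate 4 stood apart and went against its cell type label. It had the lowest value of all arrays for each of the 6 CD8 T-cell genes measured, with a Cd8a value of 2.96, against 7.94 to 8.20 in exponential replicates 1, 2, 3 and 5, and its Cd4 value of 5.18 was above the wild-type values of 4.21 to 4.62. Its 6 measured pan T-cell genes had a median of 7.47, against 7.40 to 7.95 in the wild-type arrays, and the log2 of their summed level was 10.60, below the wild-type range of 10.64 to 11.04 as in the other 7 leukemia arrays. The differences of the subunit genes are given with it and, where named, without it.

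Of the 10 subunit genes, Itgb8, Itga4 and Itgav were called lower in the exponential phase and again in the chronic phase, and 0 were called higher in either. Called means that limma gave an adjusted p below 0.05 (Benjamini-Hochberg over all genes) and that the groups differed 1.5-fold or more. The 3 genes called lower in the exponential phase compare with 0.281% of all genes called lower there (56 of 19937). The 3 called lower in the chronic phase compare with 0.316% (63 of 19937). Since the 10 genes were chosen with earlier results of these data known, these shares are a background and not a test. Both phases were measured against the same 3 wild-type arrays. The leukemia arrays lay below every wild-type array for these 3 genes, and the exponential and chronic arrays overlapped each other for each of them.

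**Figure D1:**
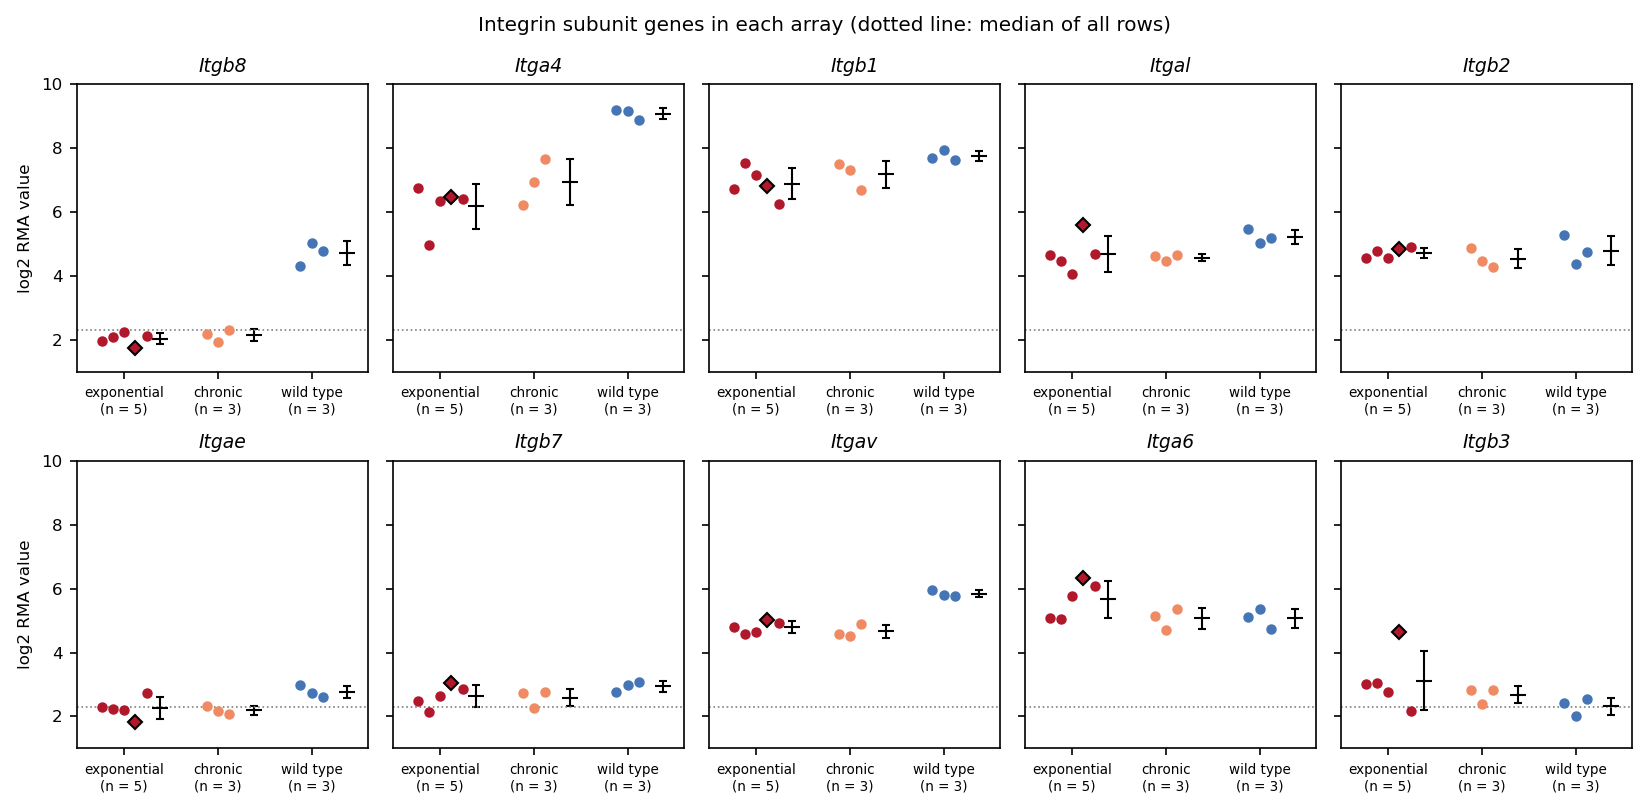
Log2 RMA values of the 10 integrin subunit genes in each array, with exponential (n = 5), chronic (n = 3) and wild-type arrays (n = 3) from left to right and the same vertical axis in every panel. Each point is 1 array, the diamond is exponential replicate 4, the cross with bars is the mean with SD, and the dotted line is the median of all rows (2.30). Itgb8 lay near that line in the leukemia arrays and above 4 in the wild-type arrays.

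Itgb8, the beta 8 chain, which pairs only with alpha v, measured 1.98, 2.09, 2.25, 1.76 and 2.13 in exponential arrays 1 to 5 and 2.20, 1.95 and 2.31 in chronic arrays 1 to 3, against 4.32, 5.05 and 4.80 in the wild-type arrays. Of the 8 leukemia arrays, 7 were below the median of all rows, and 0 of the 3 wild-type arrays were. In the exponential phase Itgb8 averaged 2.04 ± 0.18 (SD, n = 5), against 4.72 ± 0.37 in wild type (SD, n = 3), a log2 difference of -2.68 (SE 0.17, limma adjusted p = 0.000465) or 6.41-fold lower. By p-value it was number 2 of all genes. In the chronic phase it averaged 2.15 ± 0.18 (SD, n = 3), a difference of -2.57 (SE 0.20, adjusted p = 0.00788) or 5.94-fold lower. Over all 8 leukemia arrays the difference was -2.64 (SE 0.15, adjusted p = 7.39e-06), which was number 1 of all genes by p-value. Since no detection calls were used and the leukemia values lay near the table's median, how far Itgb8 was expressed there at all was not determined. Itgb8 stayed called in both phases whichever array was left out.

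Itgav, the alpha v chain and partner of beta 8, beta 3 and other beta chains, measured 4.80, 4.58, 4.65, 5.02 and 4.91 in exponential arrays 1 to 5 and 4.59, 4.51 and 4.89 in chronic arrays 1 to 3, against 5.97, 5.80 and 5.78 in the wild-type arrays. The highest leukemia value, that of exponential replicate 4, was below the lowest wild-type value. The mean was 4.79 ± 0.18 in the exponential phase (SD, n = 5) and 4.66 ± 0.20 in the chronic phase (SD, n = 3), against 5.85 ± 0.10 in wild type (SD, n = 3). Itgav was 2.08-fold lower in the exponential phase (log2 difference -1.05, SE 0.12, limma adjusted p = 0.0114) and 2.27-fold lower in the chronic phase (-1.19, SE 0.14, adjusted p = 0.0252). The exponential call was lost without wild-type replicate 2 (adjusted p = 0.0541). The chronic call was lost when any array other than chronic replicate 3 was left out, with adjusted p up to 0.109.

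Itga4, the alpha 4 chain of VLA-4, measured 6.76, 4.97, 6.34, 6.47 and 6.41 in exponential arrays 1 to 5 and 6.23, 6.95 and 7.67 in chronic arrays 1 to 3, against 9.19, 9.17 and 8.88 in the wild-type arrays. All 8 leukemia arrays were lower than all wild-type arrays, and exponential replicate 2 was the lowest of the 8. The mean was 6.19 ± 0.70 in the exponential phase (SD, n = 5) and 6.95 ± 0.72 in the chronic phase (SD, n = 3), against 9.08 ± 0.18 in wild type (SD, n = 3). The SD of the wild-type arrays was thus the smallest, but each of them averages a pool of 3 mice. These SDs therefore do not compare the spread between mice. Itga4 was 7.41-fold lower in the exponential phase (log2 difference -2.89, SE 0.35, limma adjusted p = 0.0129) and 4.38-fold lower in the chronic phase (-2.13, SE 0.33, adjusted p = 0.0477). The exponential call was lost whichever wild-type array was left out (adjusted p = 0.0576 for replicate 1, 0.0600 for replicate 2 and 0.0530 for replicate 3), and the chronic call was lost when any array other than chronic replicate 3 was left out, with adjusted p up to 0.173.

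The sequences just upstream of Itgb8, Itga4 and Itgav are shown because these 3 genes were called lower together. RefSeq promoter entries of build GRCm38.p6 were at hand for 5 of the 10 subunit genes (Itgb8, Itga4, Itgb1, Itgb7 and Itgav), and the 250 bases before each start site were read on the gene's strand. Itgb8 lies on the minus strand (chr12:119238277-119238526), and Itga4 (chr2:79255176-79255425) and Itgav (chr2:83724147-83724396) on the plus strand. Capitals mark motif matches, 5′ to 3′.
Itgb8: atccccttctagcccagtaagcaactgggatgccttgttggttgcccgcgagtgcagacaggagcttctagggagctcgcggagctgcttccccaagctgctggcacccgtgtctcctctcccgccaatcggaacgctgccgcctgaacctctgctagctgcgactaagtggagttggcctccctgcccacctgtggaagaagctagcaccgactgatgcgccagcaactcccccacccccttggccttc
Itga4: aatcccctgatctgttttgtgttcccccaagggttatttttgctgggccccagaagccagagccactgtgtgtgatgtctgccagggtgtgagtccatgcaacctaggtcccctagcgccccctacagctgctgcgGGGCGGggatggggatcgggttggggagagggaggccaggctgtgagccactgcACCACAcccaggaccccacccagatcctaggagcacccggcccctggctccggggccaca
Itgav: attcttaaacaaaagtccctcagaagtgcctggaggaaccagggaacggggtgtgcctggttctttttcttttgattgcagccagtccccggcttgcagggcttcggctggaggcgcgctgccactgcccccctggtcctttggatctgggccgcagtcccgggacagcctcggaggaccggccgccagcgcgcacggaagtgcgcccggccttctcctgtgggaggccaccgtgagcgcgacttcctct
The share of G and C was 62.4% for Itgb8, 64% for Itga4 and 64.4% for Itgav, against a median of 52.4% over 32851 promoters of this length. Of these promoters, 77.5%, 80.8% and 81.6% held less. Among the genes not called, Itgb1 was at 68% and Itgb7 at 56%. The stretches were searched on both strands for the GC box GGGCGG, the RUNX motif TGTGGT, the AP-1 motif TGANTCA, the ETS motif CCGGAA and the TATA box TATAAA, of which none overlapped another in these stretches. The Itga4 stretch held 1 GC box, which 32.7% of all promoters held, and 1 RUNX motif on the opposite strand, which 14% held. The Itgb1 stretch also held 1 GC box. The letters of the 5 motifs were not in the Itgb8, Itgav or Itgb7 stretch, and the shares over all promoters were 6.75% for AP-1, 12% for ETS and 12.4% for the TATA box.

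The beta partners of alpha 4 did not pass the test. Itgb1, the most widely shared beta chain, measured 6.73, 7.54, 7.16, 6.81 and 6.25 in exponential arrays 1 to 5 and 7.51, 7.33 and 6.70 in chronic arrays 1 to 3, against 7.71, 7.94 and 7.62 in the wild-type arrays. Every leukemia array was below every wild-type array, by as little as 7.54 in exponential replicate 2 against 7.62 in wild-type replicate 3. The log2 difference was -0.86 in the exponential phase (SE 0.25, limma adjusted p = 0.232), -0.84 without exponential replicate 4, and -0.58 in the chronic phase (SE 0.22, adjusted p = 0.369). Itgb7 measured 2.48, 2.14, 2.65, 3.03 and 2.86 in exponential arrays 1 to 5 and 2.74, 2.28 and 2.75 in chronic arrays 1 to 3, against 2.75, 2.98 and 3.09 in the wild-type arrays. These ranges overlapped, and the differences were -0.31 (adjusted p = 0.689) in the exponential phase, -0.40 without exponential replicate 4 (adjusted p = 0.410), and -0.35 (adjusted p = 0.523) in the chronic phase. Itgae, the alpha E chain (CD103) that pairs with beta 7 and binds E-cadherin, measured 2.30, 2.24, 2.21, 1.81 and 2.74 in exponential arrays 1 to 5 and 2.33, 2.16 and 2.07 in chronic arrays 1 to 3, against 2.98, 2.73 and 2.61 in the wild-type arrays. Its chronic arrays were all below wild type, whereas exponential replicate 5 was inside the wild-type range. Below the median of all rows were 6 of the 8 leukemia arrays for Itgae and 2 of the 8 for Itgb7. How far either gene was expressed there was not determined. The difference of Itgae was -0.52 in the exponential phase (SE 0.19, limma adjusted p = 0.379) and -0.40 without exponential replicate 4 (adjusted p = 0.347). In the chronic phase it was -0.59 (SE 0.14, adjusted p = 0.161).

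The LFA-1 chains also missed the threshold. Itgal, the alpha L chain, measured 4.66, 4.48, 4.06, 5.60 and 4.70 in exponential arrays 1 to 5 and 4.63, 4.46 and 4.65 in chronic arrays 1 to 3, against 5.47, 5.03 and 5.18 in the wild-type arrays. Exponential replicate 4 was above all wild-type arrays, and the other 7 leukemia arrays were below all of them. The log2 difference was -0.53 in the exponential phase (SE 0.29, limma adjusted p = 0.627) and -0.65 in the chronic phase (SE 0.15, adjusted p = 0.133). Without exponential replicate 4, the difference of the exponential phase was -0.75 (adjusted p = 0.0877), and that of all leukemias was -0.71 (adjusted p = 0.0324), which passed the threshold. Itgb2, the beta 2 chain shared by the leukocyte integrins, measured 4.56, 4.79, 4.57, 4.84 and 4.91 in exponential arrays 1 to 5 and 4.87, 4.48 and 4.29 in chronic arrays 1 to 3, against 5.29, 4.36 and 4.74 in the wild-type arrays. The 3 groups overlapped, with differences of -0.06 (adjusted p = 0.959) in the exponential phase, -0.09 without exponential replicate 4 (adjusted p = 0.934), and -0.25 (adjusted p = 0.817) in the chronic phase.

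Itga6 and Itgb3 were the 2 subunit genes with a higher mean in the exponential arrays than in wild type, and neither passed the test. Itga6, the alpha 6 chain of laminin receptors, measured 5.07, 5.06, 5.77, 6.34 and 6.10 in exponential arrays 1 to 5 and 5.14, 4.70 and 5.36 in chronic arrays 1 to 3, against 5.12, 5.35 and 4.75 in the wild-type arrays. Exponential replicates 3, 4 and 5 were above every chronic and wild-type array, and replicates 1 and 2 were inside both ranges. The log2 difference from wild type was 0.59 in the exponential phase (SE 0.31, limma adjusted p = 0.599), and 0.43 without exponential replicate 4 (adjusted p = 0.641). In the chronic phase Itga6 was close to its wild-type level (adjusted p = 0.997). Itgb3, the beta 3 chain of the vitronectin receptor and, with alpha IIb, of platelets, measured 3.00, 3.05, 2.77, 4.64 and 2.16 in exponential arrays 1 to 5 and 2.83, 2.38 and 2.83 in chronic arrays 1 to 3, against 2.42, 2.02 and 2.53 in the wild-type arrays. Exponential replicate 4 was the highest of the 11. The difference from wild type in the exponential phase was 0.80 (SE 0.45, adjusted p = 0.646), and without that replicate it was 0.42 (adjusted p = 0.549). In the chronic phase it was 0.36 (adjusted p = 0.561). Of the platelet genes, Pf4 was 1.81, Gp9 2.25, Itga2b 1.90 and Ppbp 2.52 in exponential replicate 4, against wild-type means of 2.08, 1.90, 2.17 and 3.17. The log2 of the summed level of 8 myeloid genes was 9.65 in that array, against 5.17 to 7.76 in the other 10. The part of platelets and myeloid cells in its Itgb3 value was not tested.

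**Figure D2:**
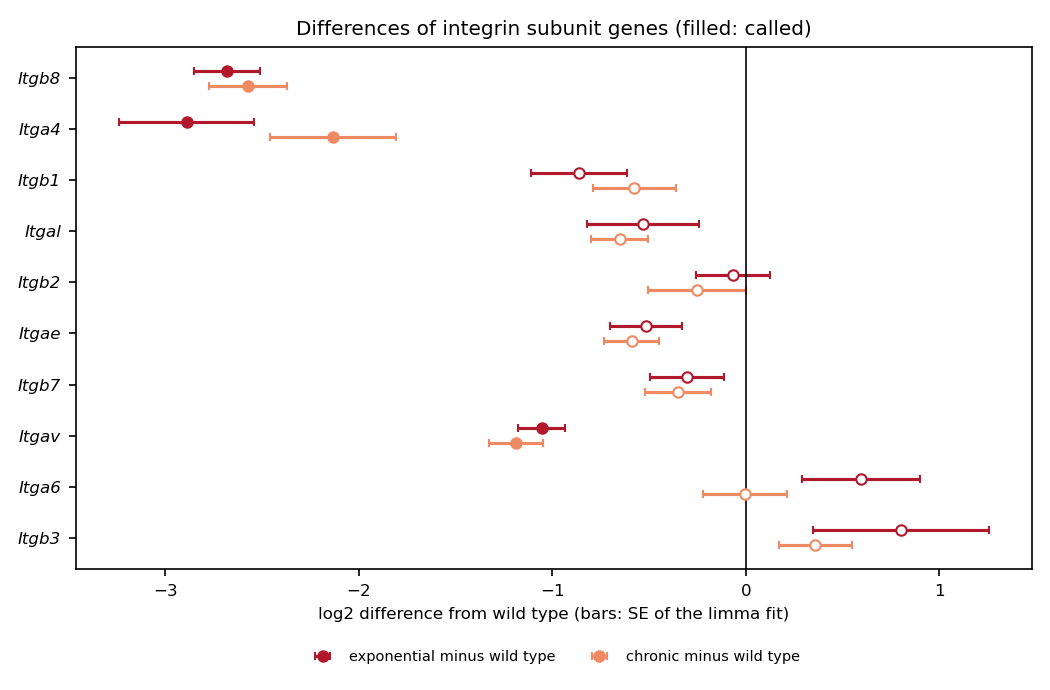
Log2 difference of each integrin subunit gene from wild type (n = 3), exponential (n = 5) above chronic (n = 3) in each row, with bars for the SE of the limma fit. Filled points were called, which were Itgb8, Itga4 and Itgav in both phases, and the points of Itga6 and Itgb3 lay near 0 or to its right.

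As a group, the 10 genes had a median log2 difference of -0.52 in the exponential phase, -0.58 in the chronic phase and -0.56 over all leukemias, where the median of all genes was 0.01, 0.00 and 0.00. At an unadjusted p under 0.05 there were 5 of the 10 in the exponential phase, against 9.78% of all genes, and 6 in the chronic phase, against 11.2%. The sign was negative for 8 of 10 genes in the exponential phase (48.3% of all genes) and for 9 of 10 in the chronic phase (50.3% of all genes). In the exponential phase, 4 of the 10 had every leukemia array below every wild-type array (Itgb8, Itga4, Itgav and Itgb1), against 3.5% of all genes. In the chronic phase these were 6 (the same 4 with Itgal and Itgae), against 7.52% of all genes. Over all 8 leukemia arrays they were Itgb8, Itga4, Itgav and Itgb1, against 1.65% of all genes, and the genes called lower were Itgb8, Itga4 and Itgav, against 0.441% of all genes. Itga4 differed there by -2.61 (SE 0.40, limma adjusted p = 0.00967) and Itgav by -1.10 (SE 0.12, adjusted p = 0.00118). Without exponential replicate 4 the median of the 10 genes was -0.58 in the exponential phase and -0.60 over all leukemias, and Itgal joined the genes with no overlap in both, against 5.31% and 2.27% of all genes. The counts of called genes depended on single arrays. Without wild-type replicate 2, 1 gene was called in the exponential phase (Itgb8), and without chronic replicate 1 or 2 or any 1 of the wild-type arrays, 1 was called in the chronic phase (Itgb8). Over all leukemias 2 were called without wild-type replicate 1, where Itga4 had an adjusted p of 0.0659.

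The pan T-cell genes, which mark the cells selected in every group, also had negative median differences from wild type. The median over the 6 measured (Lck had no row of its own) was -0.45 in the exponential phase, -0.66 in the chronic phase and -0.53 over all leukemias. By limma 0 of 6 were called in any of these, against 0.416%, 0.456% and 0.722% of all genes. At an unadjusted p under 0.05 there were 3, 4 and 4 of the 6, against 9.78%, 11.2% and 10.6% of all genes. The log2 of their summed level was 10.32 to 10.60 in the exponential arrays and 9.79 to 10.54 in the chronic arrays, against 10.64 to 11.04 in the wild-type arrays, with no overlap. Among them were Cd5 at -0.96, Cd3e at -0.61 and Cd3d at 0.06 over all leukemias (adjusted p = 0.269, 0.138 and 0.967). Their part in the differences of the subunit genes was not tested.

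**Figure D3:**
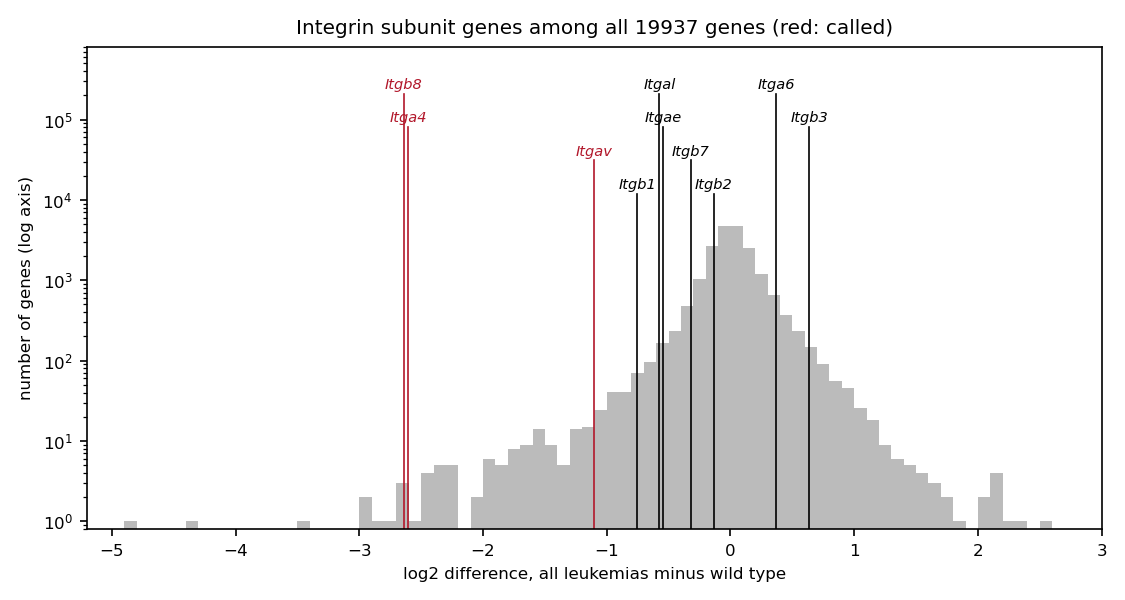
Distribution of the log2 difference between all leukemias (n = 8) and wild type (n = 3) over all 19937 genes in bins of equal width, with the number of genes on a log axis and the integrin subunit genes as vertical lines, whose heights only space the labels. The 3 called genes (red) lay at -2.64 (Itgb8), -2.61 (Itga4) and -1.10 (Itgav), and the other 7 between -0.75 (Itgb1) and 0.64 (Itgb3).

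Between the phases, 0 of the 10 genes were called, and neither were any of the 19937 genes (0%) in limma. At an unadjusted p under 0.05 there were 0 subunit genes and 1246 genes in all (6.25%), and the methods' t-test called 0 of both after adjustment. The intervals still allow differences of some size. The exponential minus chronic difference was -0.11 for Itgb8 (95% interval -0.41 to 0.19) and 0.13 for Itgav (-0.17 to 0.43). For Itga4 it was -0.76 (-1.72 to 0.20, limma adjusted p = 0.830), and for Itga6 it was 0.60 (-0.11 to 1.31, adjusted p = 0.821). The interval of Itgb1 ran between -0.93 and 0.36, and that of Itgb3, whose difference was 0.44, between -0.59 and 1.47. Several of these differences moved without exponential replicate 4. That of Itgb3 was then 0.06 (SE 0.22), that of Itgb8 -0.04 (SE 0.12), that of Itgav 0.08 (SE 0.13) and that of Itga6 0.43 (SE 0.27). Itga4 was at -0.83 (SE 0.44) and Itgb1 at -0.26 (SE 0.30) without it, and Itgae at 0.19 (SE 0.15) in place of 0.07. Itgal, at 0.12 with that array, was at -0.10 without it, and Itgb7 was at 0.05 with it and -0.05 without it. Itgb2 was at 0.19 with it and 0.16 without it. None of the 10 was called without it, at adjusted p of at least 0.761. The ranges of the exponential and chronic arrays overlapped for all 10 genes, where 2.3% of all genes had every exponential array above every chronic array and 2.25% had the opposite.

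The other genes of the pathway were described by lists, and 0 of their members were called in any of the 4 comparisons by limma. The 17 other integrin subunits were dim, with 149 of their 187 values below the median of all rows. A single value of them was above 3.5, that of Itgax (the alpha X chain of myeloid cells) in exponential replicate 5 at 3.70. Their median difference was 0.00 in the exponential phase and 0.02 in the chronic phase, and 1 of 17 had an unadjusted p under 0.05 in each, against 9.78% and 11.2% of all genes. The smallest p-values belonged to Itga1 (alpha 1, a collagen receptor chain), at -0.50 over all leukemias (SE 0.14, adjusted p = 0.173), and Itgax, at 0.67 in the chronic phase (SE 0.25, adjusted p = 0.360).

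Among 13 measured ligands (Spp1 had no row of its own), the 2 smallest p-values were those of Vcam1 and Thy1. Vcam1, the ligand of alpha 4 beta 1, measured 3.29, 3.28, 3.22, 2.77 and 3.51 in exponential arrays 1 to 5, against 2.21, 2.07 and 2.26 in chronic arrays 1 to 3. The exponential arrays were all above the chronic arrays, as for 2.3% of all genes. They were also above the wild-type values of 2.38, 2.44 and 2.54, as for 3.28% of all genes. The difference between the phases was 1.03 (SE 0.16), with an unadjusted p of 8.58e-05 that became 0.378 after adjustment in limma. The log2 of the summed level of myeloid genes was also higher in the exponential arrays (6.57 to 9.65) than in the chronic arrays (5.22 to 5.48). The part of myeloid cells in the Vcam1 values was not tested. Thy1, a T-cell surface glycoprotein, differed by 0.46 in the chronic phase (SE 0.18, adjusted p = 0.390). Unadjusted p-values under 0.05 were found for 1 ligand in the exponential phase, 3 in the chronic phase and 2 between the phases, against 9.78%, 11.2% and 6.25% of all genes.

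Inside the cell, integrins are switched on by talins, kindlins and the GTPase Rap1, and they signal through kinases and adaptors at the membrane. Of the 23 activation genes, 5 had an unadjusted p under 0.05 in the exponential phase and 3 in the chronic phase, against 9.78% and 11.2% of all genes. Rap1b, a Rap1 GTPase, was at 0.39 over all leukemias (SE 0.10, limma adjusted p = 0.125), and Dok1, an adaptor that competes with talin, was at -0.32 in the exponential phase (SE 0.10, adjusted p = 0.255). Of 23 measured signaling genes (Ptk2 had no row of its own), these counts were 5 and 4, against the same shares. Parvg, the parvin of blood cells, measured 3.96, 4.10, 3.93, 4.04 and 4.13 in exponential arrays 1 to 5, against 3.66, 3.58 and 3.53 in the wild-type arrays. The groups did not overlap, with every exponential array above wild type as for 3.28% of all genes, and the difference of 0.45 (SE 0.09, adjusted p = 0.0875) missed the threshold. Zyx, which codes for zyxin of focal adhesions, was at 0.68 over all leukemias (SE 0.19, adjusted p = 0.169).

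The genes around latent TGF-beta, the ligand of alpha v beta 8, did not pass the test either. Of 18 measured, 2 had an unadjusted p under 0.05 in the exponential phase, 1 in the chronic phase and 0 between the phases, against 9.78%, 11.2% and 6.25% of all genes, and the median difference was -0.02 in the exponential phase and -0.13 in the chronic phase. Runx3, a transcription factor of CD8 T-cells, was at 0.47 in the chronic phase (SE 0.13, limma adjusted p = 0.205), and Smad2, a signal carrier of the TGF-beta receptor, was at 0.31 in the exponential phase (SE 0.14, adjusted p = 0.496). Tgfb1 itself was at 2.91 to 3.02 in the exponential arrays and 2.64 to 3.10 in the chronic arrays, against 2.82 to 2.97 in the wild-type arrays, which overlap.

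Genes of CD4 and regulatory T-cells were also lower on average in the leukemias. All 8 of that list had negative differences in both phases, against 48.3% of all genes in the exponential and 50.3% in the chronic phase. In the exponential phase 2 were called lower (Il2ra and Tnfrsf4), against 0.281% of all genes. In the chronic phase 6 were called lower (Cd4, Cd40lg, Ikzf2, Ctla4, Il2ra and Tnfrsf4), against 0.316% of all genes. The log2 of the list's summed level was 5.82 to 7.90 in the exponential arrays and 6.00 to 7.12 in the chronic arrays, against 10.1 to 10.7 in the wild-type arrays, with no overlap. The wild-type cells were CD3+ and not CD8-selected, and in bulk RNA fewer cells of a type and less RNA per cell cannot be told apart. The part of CD4 and regulatory T-cells in the lower Itgb8, Itga4 and Itgav values was not tested. Defining markers at a low level in the leukemia arrays included Foxp3, at 2.24 to 2.76 in the exponential and 2.50 to 2.62 in the chronic arrays, against 3.07 to 3.32 in the wild-type arrays.

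**Figure D4:**
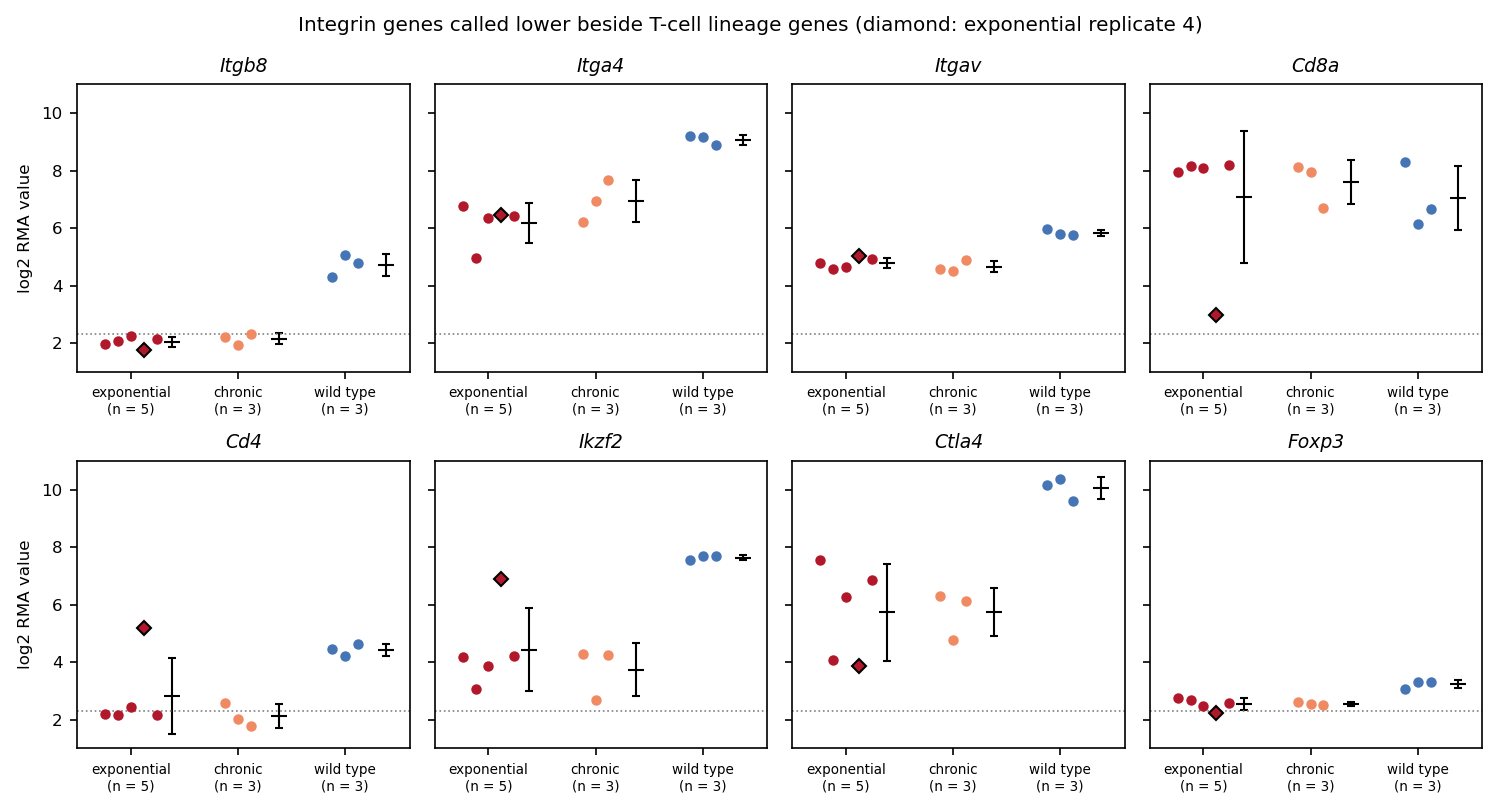
Log2 RMA values of Itgb8, Itga4 and Itgav beside Cd8a and 4 genes of CD4 and regulatory T-cells in each array, with exponential (n = 5), chronic (n = 3) and wild-type arrays (n = 3) from left to right, the mean with SD, and the median of all rows as a dotted line. Exponential replicate 4 (diamond) had Cd4 at 5.18 and Ikzf2 at 6.88, while its Itgb8 of 1.76 was the lowest of all 11 arrays.

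In exponential replicate 4 the Cd4 value was above the wild-type arrays, and the Ikzf2 value of 6.88 was nearer to the wild-type values (7.54 to 7.69) than those of the other exponential arrays (3.06 to 4.21). Ikzf2 codes for Helios, a factor of regulatory and other T-cells. In the same array Itgb8 was 1.76, Itga4 6.47 and Itgav 5.02, each below the lowest wild-type value of 4.32, 8.88 and 5.78. Its Foxp3 (2.24), Il2ra (2.07) and Ctla4 (3.85) values were also below the lowest wild-type values of 3.07, 3.84 and 9.62. Without this array the exponential phase had the same 3 subunit genes called, with Itgb8 at -2.61 (limma adjusted p = 0.000167), Itga4 at -2.96 (0.00682) and Itgav at -1.11 (0.00314), while the number of genes called in all was 221 in place of 83.

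Other markers gave these values. The summed myeloid list was at 6.57 to 9.65 in the exponential and 5.22 to 5.48 in the chronic arrays, against 5.17 to 5.39 in the wild-type arrays, and of its 8 genes Lyz2 (lysozyme) was called higher in the exponential phase (2.91, limma adjusted p = 0.0114). The CD8 list had a median of 3.17 to 8.63 in the exponential and 8.31 to 8.76 in the chronic arrays, against 6.94 to 8.35 in the wild-type arrays, and Gzmb and Klrd1 of it were called higher in the chronic phase. Car1, a carbonic anhydrase of red cells, was called lower in the exponential phase, and no other member of the B-cell, dendritic cell, natural killer cell, platelet and erythroid lists was called in either phase. The part of these cells in the subunit values was not tested. Mouse Tcl1 was at 1.49 to 1.81 in the leukemia arrays, against 1.61 to 1.65 in the wild-type arrays, which says nothing of the human transgene.

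The genes whose pattern over the 11 arrays was most like that of Itgb8 were Gpm6b, Slamf1, Trp53inp1, Il2ra and Nrp1. T-cell receptor and immunoglobulin segments and clone names (symbols ending in Rik, or starting with Gm, LOC, BC or AK and a digit) were left out. Likeness was the root mean square difference between the log2 deviations of both genes from their own means, compared over 667 genes that varied at least 0.5 times as much (SD) as Itgb8. It was 0.36 for Gpm6b (a membrane glycoprotein), 0.47 for Slamf1 (the receptor SLAM), 0.48 for Trp53inp1 (a p53-inducible nuclear protein), 0.49 for Il2ra (the alpha chain of the interleukin-2 receptor) and 0.49 for Nrp1 (neuropilin 1). Nrp1 lay at 2.05 to 2.87 in the leukemia arrays, against 3.81 to 4.87 in the wild-type arrays. For Itga4, among 537 genes, the most alike were Casp1 (caspase 1) at 0.57, Eea1 (an early endosome protein) at 0.62, Penk (proenkephalin) at 0.63, Trp53inp1 at 0.64 and Itgb8 itself at 0.64. All of these genes were called lower over all leukemias, and the 11 arrays fall into 3 groups, whose levels enter this measure. Among the 10 subunit genes themselves the smallest differences were those of Itgb2 with Itgae (0.32), Itgal with Itgb7 (0.35) and Itgal with Itgav (0.36). No bound on the SD was set there, and genes that vary little come out close by this measure whatever their pattern. The SD over the 11 arrays was 0.29 for Itgb2 and 0.35 for Itgae, against 1.25 for Itgb8 and 1.38 for Itga4.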

How the data were processed

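The deposited table held log2 values, which the authors had background-corrected by RMA and quantile-normalized with the affy package of R, whose version the sources used here do not give. No detection calls or scan batches were at hand, so a level of background could not be set, and precision is limited by the number of arrays (11). Of 34760 rows, 21640 carried 1 gene symbol in the platform annotation, 1321 several and 11799 none. The identifiers of 21553 of these rows were found in the RefSeq table of GRCm38.p6, and 0 symbols changed. Where a gene had several rows (954 genes), its highest-mean row was taken, which left 19937 genes without a filter on dim rows. Groups were taken from the titles of the labels. Each comparison was fitted on its own groups by lmFit and eBayes of limma 3.58.1 at default settings (R 4.3.3), with Benjamini-Hochberg adjustment over all genes, and calls needed an adjusted p below 0.05 and a 1.5-fold difference. The fits were checked on simulated data. The subunit genes, the gene lists and the alternatives were chosen with earlier results of these data known. All 10 subunit genes are named. From each pathway list the rule named called genes and the 2 with the smallest unadjusted p, and for Itgb8 and Itga4 the 5 genes most alike. Tcl1, Cd4 and Cd8a were named for context, and Tgfb1, the platelet genes and the further lineage genes were added after their values were seen.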

Additional observations from a re-analysis of the deposited data

Results flagged for a closer look

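Exponential replicate 2 stood far from the other exponential arrays for Itga4, with a value of 4.97, against 6.34 to 6.76 in the other 4. Its gap to the nearest array was 0.764 of the group's range, above the 95% critical value of Dixon's test for 5 samples. The test was made for each of the 10 subunit genes in the exponential group, and 1 gene passed it. Chance alone passes about 1 in 20 groups. The same array had the highest exponential value of Itgb1 (7.54) and the lowest of Itgb7 (2.14), neither of which passed that test. Without it the exponential difference of Itga4 from wild type was -2.58, with a limma adjusted p of 0.000671.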

How the results depend on the processing

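Itgb8 was called in 20 of 20 alternatives in the exponential phase, 23 of 23 over all leukemias and 16 of 18 in the chronic phase, where the methods' t-test (adjusted p = 0.319) and a test of all rows of the table (0.0578) lost it. Itgav was called in 18 of 20, 23 of 23 and 11 of 18, and Itga4 in 16 of 20, 21 of 23 and 8 of 18. The number of subunit genes called was 3 in each comparison with wild type. After the methods' t-test, which pools no spread over genes, it was 1 in the exponential phase and 0 in the chronic phase, where 4 and 5 subunit genes, and 477 and 623 of all 19937 genes, had an unadjusted p under 0.05 with the fold. With all rows of the table tested it was 0 in the chronic phase, where the cause was not tested. With 1 array left out in turn it was 1 to 3 in the exponential phase, 1 to 3 in the chronic phase, 2 to 4 over all leukemias and 0 each time between the phases. Itga4 in the chronic phase also lost its call in 1 fit over all groups (adjusted p = 0.0626) and after cyclic loess (0.0516). The genes called among all were 83 in the exponential phase (4 by the methods' t-test, 45 with all rows, 16 to 221 with 1 array left out), 91 in the chronic phase (0, 0 and 8 to 108, and 154 with a variance trend and robust estimation) and 144 over all leukemias (46 by the methods' t-test, 50 to 273 with 1 array left out). The main fits did not pair arrays by replicate number. Correlations of same-numbered deviations from the group means were -0.037 to 0.161 between exponential and chronic. They were -0.012 to 0.174 between exponential and wild type and -0.0075 to 0.18 between chronic and wild type. Different-numbered arrays gave -0.228 to 0.104, -0.149 to 0.018 and -0.162 to 0.048 in the same order. Spleens were taken after death and the wild-type arrays were pools, so equal numbers cannot mark the same mouse. The ranges overlap, so whether the numbers mark another kind of pair cannot be told from them. With the replicate number as a block, 3 subunit genes were called in the exponential phase (139 of all genes), 2 in the chronic phase, 4 over all leukemias (264 of all genes) and 0 between the phases. Itgal over all leukemias passed with the block (-0.74, adjusted p = 0.0419), and Itga4 in the chronic phase did not (0.0582). Signs turned only for differences that were not called. Itgb2 in the exponential phase was at 0.026 with array weights. With 1 array left out in turn, it lay between -0.28 and 0.18 (above 0 without wild-type replicate 1), and over all leukemias between -0.35 and 0.11 (above 0 without the same array). Itga6 in the chronic phase lay between -0.17 and 0.18 (above 0 without chronic replicate 2 or wild-type replicate 1 or 2). Between the phases, Itgal was at -0.18 and Itgb7 at -0.16 with the replicate block. With 1 array left out, Itgal lay between -0.10 and 0.28 there (below 0 without exponential replicate 4), Itgb7 between -0.11 and 0.17 (below 0 without exponential replicate 4 or 5 or chronic replicate 2) and Itgae between -0.048 and 0.19 (below 0 without exponential replicate 5).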
